A study of Homo sapiens with 82 samples.

Results

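In HT29 cells, an established human colorectal adenocarcinoma line, 65 of 51838 genes made up the set described here. With rosiglitazone they stood at no more than 0.5 of their DMSO level at both 24 and 48 h. With both liver X receptor (LXR) agonists they lay between 0.67 and 1.5 of the DMSO level at 48 h. RNA was sequenced after 24 or 48 h of treatment with rosiglitazone, the LXR agonist GW3965 or the LXR agonist T0901317, each at 10 μM, or with the carrier DMSO, with 4 libraries in each of the 8 groups and a separate DMSO group for each time. All groups had been kept in medium with charcoal-treated serum before the drugs were added. Levels are CPM, each gene's count divided by the library total and scaled to 1000000 counts, and the members were chosen from group means of these levels. A member had a rosiglitazone to DMSO ratio of at most 0.5 at both times, a DMSO mean of at least 2 CPM at 24 h, and GW3965 and T0901317 ratios to DMSO between 0.67 and 1.5 at 48 h. Transporters of the SLC and ABC families, CYP, MUC and CEACAM genes and a few single genes were left out by symbol. The limits on rosiglitazone and on the DMSO level held for 182 genes, of which 109 lay outside the LXR window and 8 were left out by symbol. Values of these same contrasts are therefore descriptions without a test. Each treatment was carried out 4 times at each time, per the study's methods, and spreads and p-values cover the difference between these 4 libraries of 1 cell line. In such bulk samples, fewer cells of a type and less RNA per cell cannot be told apart.

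Rosiglitazone is a thiazolidinedione that activates PPARG, a nuclear receptor that pairs with the retinoid X receptor on DNA and switches on genes of fatty acid use and storage. GW3965 and T0901317 are synthetic agonists of the LXRs, nuclear receptors that sense oxysterols and switch on cholesterol export and fatty acid synthesis. In the intestinal epithelium, secretory cells arise where Notch signaling is low and the factor ATOH1 is made. NEUROG3 then marks precursors of hormone-producing enteroendocrine cells, while SPDEF, FOXA factors and CREB3L1 belong to the program of mucus-producing goblet cells.

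Library totals ran from 21044798 to 51332656 counts. Of 15 colon epithelial marker genes, 14 to 15 reached a mean of 1 CPM in each group. Their summed level in single libraries was 16782 to 22261 CPM. Fibroblast, leukocyte and endothelial marker lists summed to at most 10.6, 22.1 and 2.41 CPM. Of 13 known PPARG targets tested at 24 h, 10 rose with rosiglitazone and 0 fell by edgeR's quasi-likelihood test at an adjusted p under 0.01, the level used for every call here. PLIN2, the coat protein of lipid droplets, rose with a log2 fold change of 2.79 ± 0.10 (SE, adjusted p = 5.85e-13) at 24 h. No PPARG target fell at an unadjusted p under 0.05 either, and DESeq2 also called 0 lower. The target list was chosen with earlier results of these data known, so these counts are no independent check.

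The 65 genes were moderately to weakly expressed, and their decrease was larger at the later time. With DMSO at 24 h, 25 members lay between 2 and 5 CPM, 30 between 5 and 20 CPM, 6 between 20 and 100 CPM and 4 above 100 CPM, with a median of 6.71 CPM. The median ratio of rosiglitazone to DMSO was 0.428 at 24 h (range 0.104 to 0.499) and 0.294 at 48 h (range 0.0751 to 0.479), which is a median of 2.33-fold and 3.40-fold lower. The ratio was smaller at 48 h than at 24 h in 57 members and larger in 8, namely TNS1, TRIM5, FBLIM1, PROX1, GAD1, CAPS2, POU2AF1 and ST6GALNAC1. The share over all genes was not counted, so a larger decrease at 48 h is not shown to be particular to the members. Over all genes tested, 6.52% were called lower with rosiglitazone at 24 h and 13.1% at 48 h. A ratio of at most 0.25 was reached by 4 members at 24 h, CREB3L1, NCRNA00261, POU2AF1 and ST6GALNAC1, and by 22 members at 48 h. Every rosiglitazone library lay under every DMSO library in 64 of 65 members at 24 h and in 65 at 48 h, beside 19.9% and 29.1% of all genes tested. As the rule used these contrasts, nothing is read from those counts. Scaling to library totals shifted the median log2 ratio of all genes of at least 2 CPM to -0.09 at 24 h and -0.18 at 48 h with rosiglitazone. With TMM factors, which remove that shift, the same limits gave 46 genes, 45 of them among the 65.

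**Figure D1:**
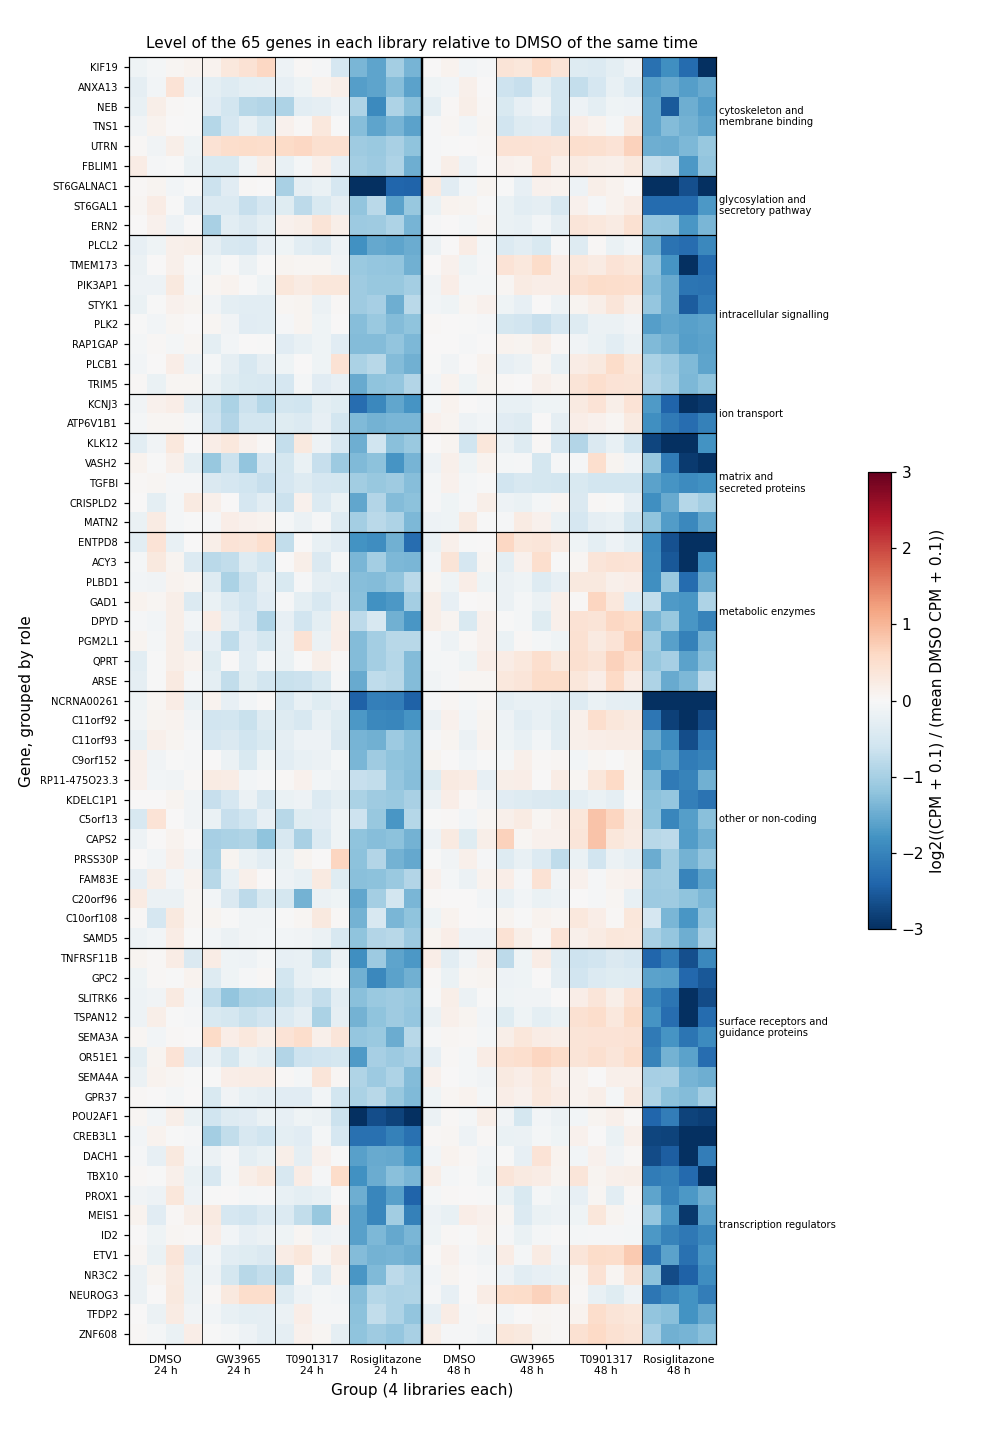
Each row is 1 of the 65 genes and each column 1 of the 32 libraries, grouped by drug and time; color gives log2 of (CPM + 0.1) over the mean DMSO level of the same time plus 0.1, from -3 (blue) to 3 (red). The rosiglitazone columns are blue in all roles, and at 48 h the lowest value of 51 members stands in rosiglitazone replicate 3 or 4. The share over all genes was not counted.

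The 48 h rosiglitazone libraries were not equally low. Replicate 3 held the lowest of the 4 values for 36 members and replicate 4 for 15, and the summed level of the 65 genes was 557, 531, 444 and 493 CPM in replicates 1 to 4. The share over all genes was not counted, so this is not shown to be particular to the members. Replicate 3 also had the lowest TMM factor of the group, 0.874, beside 0.944 in replicate 1, and CPM do not use that factor. The 48 h DMSO libraries summed to between 1768 and 1864 CPM. The rule chose the members by this contrast, so nothing is read from the gap between the groups. Without rosiglitazone replicate 3 at 48 h, 63 genes met the limits and all 63 were among the 65.

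Among 12 transcription regulators, CREB3L1 was both the most abundant member and one of those with the largest decrease. CREB3L1 is a membrane-bound factor that is cleaved and moves to the nucleus, where it switches on secretory pathway genes. Its DMSO libraries at 24 h held 328, 375, 345 and 337 CPM, and its rosiglitazone libraries held 73.5, 73.1, 84.2 and 73.8 CPM. At 48 h the DMSO libraries held 411, 416, 359.7 and 407 CPM against 59.2, 58.4, 49.4 and 49.8 CPM with rosiglitazone. No value of one group came near the other at either time, with ratios of 0.22 and 0.136. The fitted log2 fold change was -2.09 ± 0.12 (SE) at 24 h and -2.70 ± 0.09 (SE) at 48 h.

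NEUROG3, the factor that commits cells to the enteroendocrine fate, lay just inside the 24 h limit and had a lower ratio at 48 h. It held 4.38, 4.96, 6.13 and 4.34 CPM with DMSO and 1.99, 2.69, 2.58 and 2.59 CPM with rosiglitazone at 24 h. At 48 h the values were 6.33, 5.45, 6.51 and 7.47 CPM with DMSO and 1.35, 1.57, 1.78 and 1.45 CPM with rosiglitazone. The groups were separate at both times, and the ratio went from 0.497 to 0.239. GW3965 libraries at 48 h held 9.28, 9.42, 10.54 and 9.03 CPM, a ratio of 1.49, the closest of all members to the upper edge of the LXR window for that drug.

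POU2AF1 encodes a coactivator that binds POU-domain factors and is best known in B cells. It was weakly expressed, with 2.97, 2.66, 3.20 and 2.47 CPM with DMSO and 0.246, 0.364, 0.33 and 0.265 CPM with rosiglitazone at 24 h. At 48 h it held 4.85, 5.63, 5.29 and 6.18 CPM with DMSO and 0.983, 1.22, 0.712 and 0.695 CPM with rosiglitazone. Its ratio of 0.107 at 24 h was among the lowest of the members, and its level was higher at 48 h than at 24 h in both groups. Some rosiglitazone libraries held fewer than 10 counts of it, as was the case for VASH2, ST6GALNAC1 and DACH1 as well.

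The other regulators covered several developmental families. PROX1, a homeobox factor that is also a Wnt target in colon tumors, had ratios of 0.273 and 0.306 at 24 and 48 h. ID2, an inhibitor of basic helix-loop-helix factors and a target of BMP signaling, had 0.358 and 0.255. ETV1, an ETS factor whose level follows MAPK signaling, had 0.368 and 0.254. These were followed by DACH1 with 0.297 and 0.141, the homeobox gene MEIS1 with 0.301 and 0.279, and NR3C2, the mineralocorticoid receptor, with 0.433 and 0.243. TFDP2, a dimer partner of E2F factors, had 0.494 and 0.37. Over all 12 regulators the median ratio was 0.344 at 24 h and 0.248 at 48 h.

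Genes that neighbor each other appeared among the members. C11orf92 (now COLCA1) and C11orf93 (now POU2AF3, whose product, like that of POU2AF1, binds POU-domain factors) overlap on opposite strands of chromosome 11, and POU2AF1 lies 3 genes from C11orf93 in the RefSeq order. C11orf92 held 16.2, 18.6, 18.9 and 16.2 CPM with DMSO and 5.27, 4.48, 4.41 and 5.03 CPM with rosiglitazone at 24 h. Its 48 h values were 21.6, 26.6, 22.9 and 25.8 CPM with DMSO and 5.36, 3.41, 2.52 and 3.66 CPM with rosiglitazone. The decrease thus grew from a ratio of 0.274 to one of 0.154, with no overlap of the groups. C11orf93 had 19.9 ± 2.24 CPM (SD, n = 4) with DMSO and 8.10 ± 0.911 CPM (SD, n = 4) with rosiglitazone at 24 h, and its ratio went from 0.406 to 0.252. Reads of the overlapping pair cannot be told apart where the counting ignored strand, which the sources used here do not state.

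Most of the expressed genes on either side of that block were not called. With rosiglitazone, FDX1, the nearest expressed gene before it, had a log2 fold change of -0.26 ± 0.09 (SE, adjusted p = 0.045) at 24 h, and SIK2, the nearest after it, had -0.06 ± 0.05 (SE, adjusted p = 0.468). At 48 h the values were -0.27 ± 0.09 (SE, adjusted p = 0.0323) and 0.03 ± 0.06 (SE, adjusted p = 0.723). Of the 4 expressed genes taken on each side, DDX10 alone passed the test, with a higher level. TBX10 and ACY3, which have no gene between them, form another such pair. TBX10, a T-box factor, had ratios of 0.33 and 0.181, and ACY3, an aminoacylase, had 0.389 and 0.189. Neither NUDT8 before them, with 0.14 ± 0.10 (SE, adjusted p = 0.352) at 24 h, nor any other flanking gene taken was called lower.

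**Figure D2:**
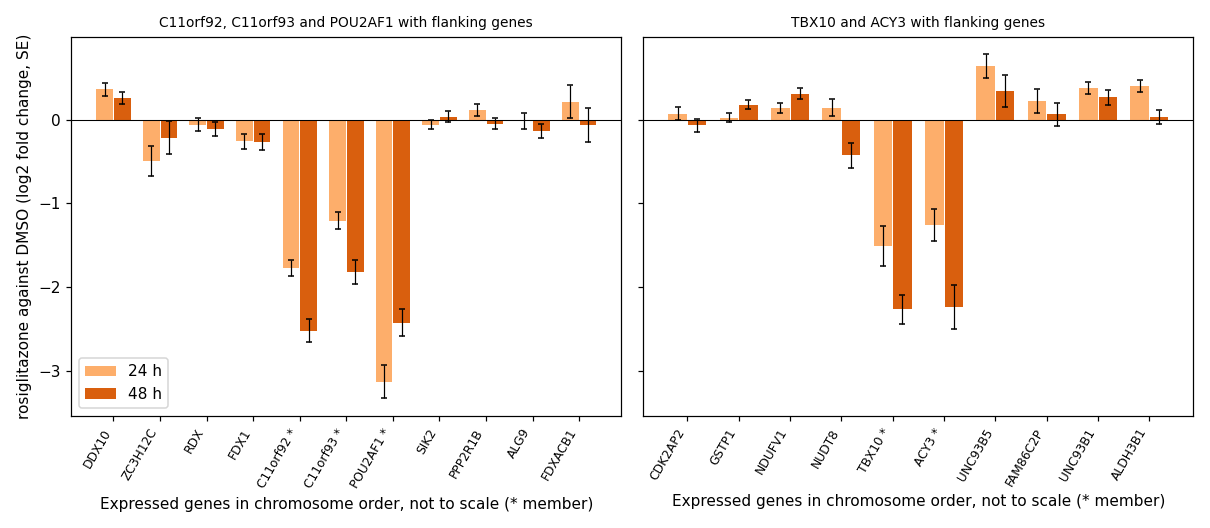
Bars give the log2 fold change of rosiglitazone against DMSO with its SE for members (marked with a star) and the 4 nearest genes of at least 2 CPM on each side, in chromosome order and not to scale, at 24 h (light) and 48 h (dark). The members C11orf92, C11orf93, POU2AF1, TBX10 and ACY3 stand between -1.21 and -3.13, and their flanking genes lie between -0.49 and 0.64.

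The long noncoding RNA NCRNA00261 (now LINC00261) had the lowest ratio of any member at 48 h. It held 15.4, 17.7, 19.8 and 14.7 CPM with DMSO and 3.08, 4.03, 3.96 and 3.06 CPM with rosiglitazone at 24 h. At 48 h it held 22.3, 23.6, 22.0 and 23.33 CPM with DMSO and 1.99, 1.89, 1.69 and 1.27 CPM with rosiglitazone. The ratio went from 0.209 to 0.0751, while GW3965 and T0901317 stood at 0.842 and 0.819 of DMSO at 48 h. FOXA2, the endoderm and secretory cell factor gene next to it, is not a member and fell with rosiglitazone, with a log2 fold change of -0.89 ± 0.10 (SE, adjusted p = 1.22e-06) at 24 h and -0.62 ± 0.10 (SE, adjusted p = 6.71e-05) at 48 h.

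The 250 bases before the RefSeq start are shown for the most abundant member and for the overlapping pair. They are also shown for the noncoding RNA with the lowest 48 h ratio and for SLITRK6. Both LXR agonists lowered SLITRK6 at 24 h, and also TGFBI, whose window is not shown. Capitals mark a match to TGANTCA or to TATAAA, the TATA element, searched on both strands. TGANTCA is a loose form of the AP1 site, with the middle base, usually C or G, left free. The motifs do not overlap one another here.
CREB3L1 (GRCh38.p14, chr11:46294909-46295158, plus strand): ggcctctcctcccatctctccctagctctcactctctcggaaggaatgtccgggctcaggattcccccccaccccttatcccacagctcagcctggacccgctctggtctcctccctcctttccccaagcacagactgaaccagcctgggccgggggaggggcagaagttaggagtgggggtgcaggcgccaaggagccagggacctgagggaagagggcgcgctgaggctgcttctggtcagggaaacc
C11orf92 (GRCh38.p14, chr11:111305049-111305298, minus strand): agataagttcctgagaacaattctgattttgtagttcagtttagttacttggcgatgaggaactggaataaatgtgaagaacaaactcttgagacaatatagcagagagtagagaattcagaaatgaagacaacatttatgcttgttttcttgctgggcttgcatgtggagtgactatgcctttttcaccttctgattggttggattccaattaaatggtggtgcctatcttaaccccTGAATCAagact
C11orf93 (GRCh38.p14, chr11:111298296-111298545, plus strand): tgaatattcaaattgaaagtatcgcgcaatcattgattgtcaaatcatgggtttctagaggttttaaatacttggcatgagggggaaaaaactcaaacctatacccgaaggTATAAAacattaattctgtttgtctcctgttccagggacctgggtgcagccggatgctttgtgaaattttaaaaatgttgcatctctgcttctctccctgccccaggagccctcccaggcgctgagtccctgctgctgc
NCRNA00261 (GRCh38.p14, chr20:22578643-22578892, minus strand): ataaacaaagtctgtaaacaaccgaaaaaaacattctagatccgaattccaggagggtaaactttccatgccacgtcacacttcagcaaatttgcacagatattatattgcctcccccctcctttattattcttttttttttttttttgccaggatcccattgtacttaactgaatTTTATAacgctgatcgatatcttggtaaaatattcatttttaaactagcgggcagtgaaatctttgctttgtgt
SLITRK6 (GRCh38.p14, chr13:85799420-85799669, minus strand): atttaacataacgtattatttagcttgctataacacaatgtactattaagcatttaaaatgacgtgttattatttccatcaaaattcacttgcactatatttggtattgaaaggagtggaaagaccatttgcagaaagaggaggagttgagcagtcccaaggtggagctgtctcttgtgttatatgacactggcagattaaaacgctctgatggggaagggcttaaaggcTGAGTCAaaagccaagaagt

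The AP1 letters began 12 bases before the start of C11orf92 and 20 bases before that of SLITRK6. They read TGAATCA in C11orf92, a match to the loose form only, and TGAGTCA in SLITRK6. The TATA letters stood 139 bases before the start of C11orf93 and, on the other strand, 74 bases before that of NCRNA00261. CREB3L1 held neither motif, nor AGGTCA, the core site of nuclear receptors such as PPARG and the LXRs, and AGGTCA was absent from all printed windows. The TGFBI window held none of these motifs either. Over the 11691 genes tested at 24 h that had such a window, 4.27% held the AP1 letters, 6.1% the TATA letters and 9.07% AGGTCA. All 65 members had a current RefSeq symbol, but only 47 of them, 72.3%, had such a window. A share over these 47 does not stand for all members and was not read.

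Among genes of the secretory pathway, ST6GALNAC1 had the lowest 24 h ratio of all members. This enzyme adds sialic acid to mucin-type sugar chains and makes the sialyl-Tn antigen of goblet cells. It held 2.34, 2.43, 2.15 and 2.27 CPM with DMSO and 0.0492, 0.196, 0.36 and 0.353 CPM with rosiglitazone at 24 h. At 48 h it held 5.63, 3.68, 4.38 and 4.92 CPM with DMSO and 0.491, 0.408, 0.665 and 0.423 CPM with rosiglitazone. The groups stayed well apart, with ratios of 0.104 and 0.107, and the lowest library held 2 counts. ST6GAL1, which sialylates N-linked chains, had ratios of 0.437 and 0.217. ERN2, the epithelial sensor of unfolded proteins in mucus-producing cells, held 21.9, 23.5, 19.5 and 21.7 CPM with DMSO and 10.2, 10.3, 11.3 and 8.23 CPM with rosiglitazone at 24 h, and its ratio was 0.462 then and 0.392 at 48 h. ERN2 overlaps PLK1, which stood at 176 CPM and was higher with rosiglitazone, with a log2 fold change of 0.35 ± 0.06 (SE, adjusted p = 0.000475) at 24 h.

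Other goblet and secretory genes were lower as well. The gene lists were chosen with earlier results of these data known, so their counts are a description and give no independent support. Of the tested genes on a list of 28 such genes, without the members CREB3L1 and ST6GALNAC1, 12 of 22 fell and 2 rose at 24 h, and 18 of 23 fell and 1 rose at 48 h, beside 6.52% and 13.1% of all genes tested called lower and 5.81% and 12.3% called higher at the 2 times. Their median log2 fold change was -0.44 at 24 h and -1.02 at 48 h, against -0.02 and -0.01 over all genes. SERPINA1, a secreted protease inhibitor, fell with a log2 fold change of -0.77 ± 0.06 (SE, adjusted p = 1.58e-08) at 24 h and REG4, a secreted lectin, with -3.16 ± 0.09 (SE, adjusted p = 4.29e-15) at 48 h. KLF4, a factor of differentiated epithelium, rose, with 0.73 ± 0.09 (SE, adjusted p = 5.53e-06) at 24 h and 1.07 ± 0.11 (SE, adjusted p = 3.68e-07) at 48 h. Of the enteroendocrine list without NEUROG3, 2 of 10 fell and 0 rose at 24 h, and 5 of 13 fell and 0 rose at 48 h. ISL1, a homeobox factor of hormone cells, fell with a log2 fold change of -0.67 ± 0.11 (SE, adjusted p = 0.000125) at 24 h and -1.64 ± 0.16 (SE, adjusted p = 1.57e-07) at 48 h. No enteroendocrine gene was called higher by DESeq2 either, which called 4 lower at 24 h, and at an unadjusted p under 0.05 edgeR had 1 higher at 24 h and 0 at 48 h.

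**Figure D3:**
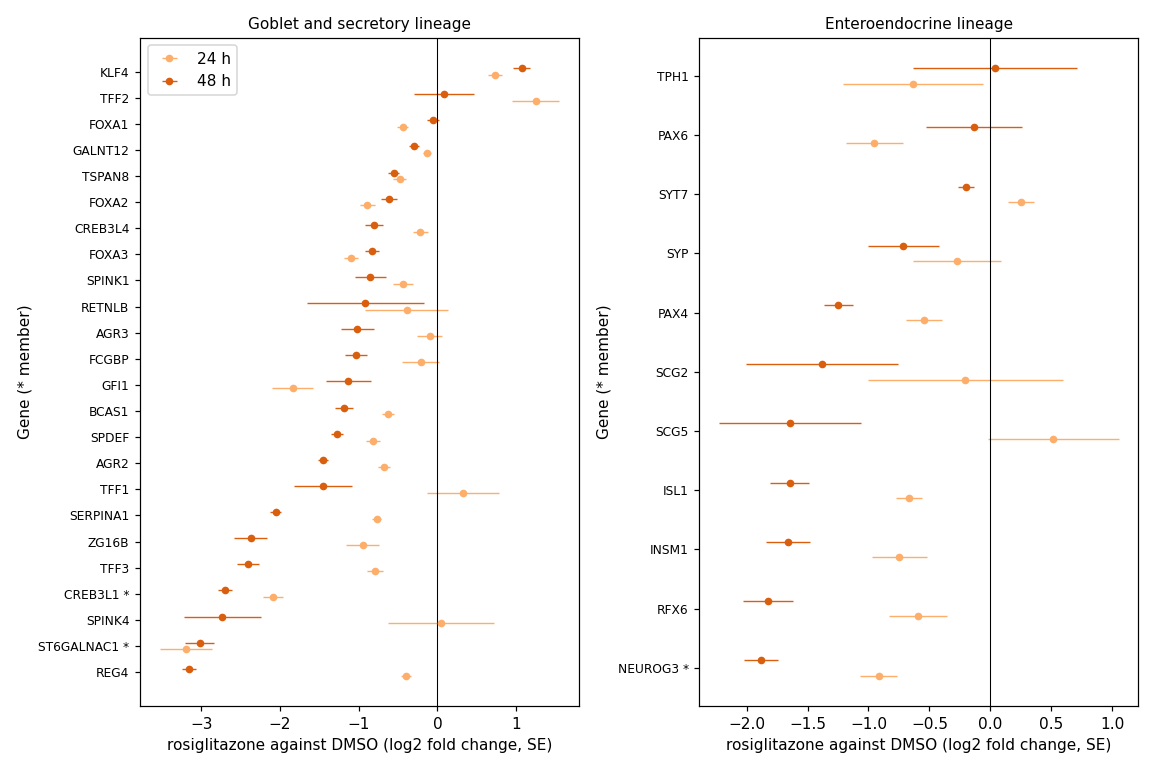
Points give the log2 fold change of rosiglitazone against DMSO with its SE for each tested gene of the goblet list (left) and the enteroendocrine list (right), at 24 h (light) and 48 h (dark); members carry a star. Most points lie left of 0, with KLF4 right of 0 at both times and REG4 at -3.16 at 48 h.

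Of 8 surface receptors and guidance proteins, SLITRK6 was the most abundant. SLITRK6 is a membrane protein that shapes neurite growth. It held 27.1, 27.9, 36.2 and 28.5 CPM with DMSO and 12.5, 13.8, 14.2 and 13.5 CPM with rosiglitazone at 24 h. At 48 h it held 41.6, 47.5, 36.8 and 41.6 CPM with DMSO and 10.8, 9.12, 4.20 and 6.47 CPM with rosiglitazone. The ratio went from 0.45 to 0.182, and the rosiglitazone libraries spread more widely at the later time than at the earlier one. The axon guidance genes SEMA3A and SEMA4A had ratios of 0.453 and 0.479 at 24 h and of 0.249 and 0.435 at 48 h. TSPAN12, a tetraspanin that aids Norrin and beta-catenin signaling, had 0.428 and 0.192 at the 2 times.

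TNFRSF11B, the decoy receptor osteoprotegerin that binds RANK ligand, was weakly expressed. It had 2.55 ± 0.48 CPM (SD, n = 4) with DMSO and 0.818 ± 0.227 CPM (SD, n = 4) with rosiglitazone at 24 h, and ratios of 0.321 and 0.18. With T0901317 at 48 h it stood at 0.68 of DMSO, the closest of all members to the lower edge of the window for that drug. The remaining receptors GPR37, GPC2 and OR51E1 had 48 h ratios of 0.457, 0.245 and 0.268.

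Matrix and secreted proteins were led by TGFBI, an adhesive matrix protein induced by TGF-beta. It held 107, 108.3, 102 and 101 CPM with DMSO and 50.6, 47.9, 49.98 and 43.4 CPM with rosiglitazone at 24 h. The 48 h values were 121, 137, 119 and 123 CPM with DMSO and 41.1, 36.6, 33.5 and 35.6 CPM with rosiglitazone. Values within a group were close to each other and the ratio went from 0.459 to 0.294. TGFBI was also lower with both LXR agonists at 48 h, at 0.693 and 0.695 of DMSO with GW3965 and T0901317, just inside the window. KLK12, a secreted serine protease, had ratios of 0.452 and 0.146, and VASH2, which promotes vessel growth, had 0.358 and 0.196. MATN2 and CRISPLD2, the other secreted proteins, had 0.329 and 0.393 at 48 h.

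Of the members, 6 bind the cytoskeleton or membranes. ANXA13, an annexin of intestinal epithelium, had 55.7 ± 12.3 CPM (SD, n = 4) with DMSO at 24 h and 204 ± 17.8 CPM (SD, n = 4) at 48 h, and rosiglitazone brought it to 0.347 and 0.335 of these levels. TNS1, which links integrins to actin, had ratios of 0.363 and 0.364. FBLIM1, another integrin partner, had 0.459 and 0.479, the highest 48 h ratio of all members. UTRN, the dystrophin relative utrophin, held 34.4, 30.8, 37.6 and 30.7 CPM with DMSO and 15.98, 15.4, 17.0 and 14.4 CPM with rosiglitazone at 24 h, and its ratios were 0.47 and 0.389.

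Among 8 genes of intracellular signaling, RAP1GAP and PLK2 were the most abundant. RAP1GAP, which switches off the small GTPase RAP1, had 171 ± 7.88 CPM (SD, n = 4) with DMSO and 70.6 ± 3.501 CPM (SD, n = 4) with rosiglitazone at 24 h. Its 48 h values were 210.2 ± 3.63 and 74.5 ± 7.80 CPM (SD, n = 4), so the ratio moved little, from 0.412 to 0.354. PLK2, a polo-like kinase of stress responses, had ratios of 0.427 and 0.329. PLCL2 and PLCB1, of the phospholipase C family, had 0.325 and 0.451 at 24 h, and TMEM173, the DNA-sensing adaptor STING, had 0.422 and 0.256 at 24 and 48 h. PIK3AP1, an adaptor of PI3 kinase, went from 0.466 to 0.294.

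ATP6V1B1, a subunit of the proton pump of acid-secreting cells, held 22.4, 24.2, 24.5 and 22.5 CPM with DMSO and 9.31, 8.70, 9.02 and 9.03 CPM with rosiglitazone at 24 h. Its ratios were 0.385 and 0.239, and the groups did not overlap. KCNJ3, an inwardly rectifying potassium channel, had ratios of 0.263 and 0.177. Of 8 metabolic enzymes, ENTPD8, which splits extracellular nucleotides, had the lowest ratios, 0.271 and 0.148. QPRT, of NAD synthesis, had 0.458 and 0.422. DPYD, which breaks down pyrimidines and the drug fluorouracil, had 0.475 and 0.323. GAD1, which makes GABA from glutamate, had 0.359 and 0.415, a smaller decrease at the later time.

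**Figure D4:**
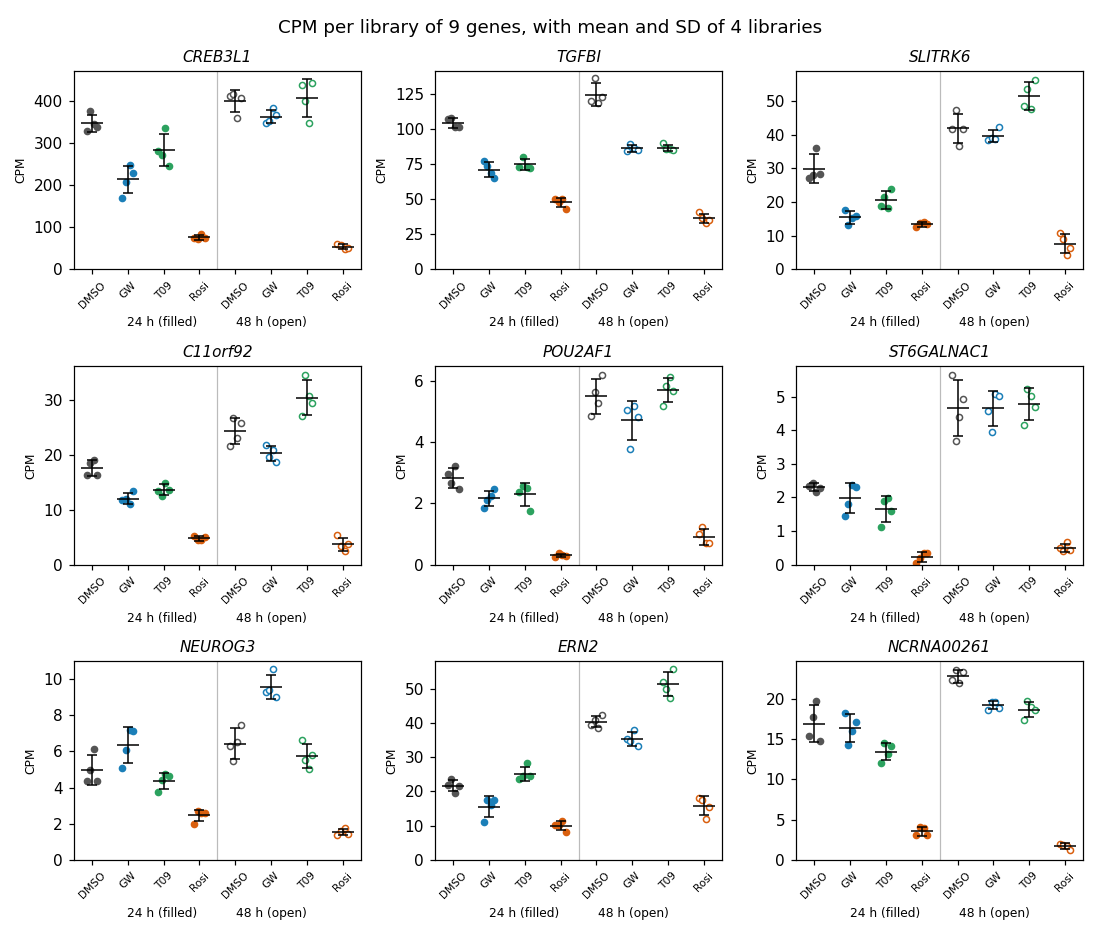
Each panel plots CPM per library for 1 gene, 24 h filled and 48 h open, with DMSO, GW3965 (GW), T0901317 (T09) and rosiglitazone (Rosi) side by side; black marks give the mean and SD of 4 libraries. The rosiglitazone points lie under those of all other groups at both times, except that GW3965 points overlap them for SLITRK6 and ERN2 at 24 h.

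The remaining members are enzymes, structural proteins and transcripts of less known role. STYK1, a pseudokinase, had ratios of 0.469 and 0.295 at 24 and 48 h, and KIF19, a kinesin of cilia, had 0.389 and 0.185. The large muscle protein NEB, which overlaps the more abundant RIF1, had 0.426 and 0.289, while RIF1 had 0.921 and 0.944. The enzymes PGM2L1, PLBD1 and ARSE had 48 h ratios of 0.346, 0.314 and 0.456. FAM83E had 14.4 ± 1.86 CPM (SD, n = 4) with DMSO at 24 h and 32.6 ± 3.14 CPM (SD, n = 4) at 48 h, with ratios of 0.46 and 0.386. SPACA4, which overlaps it, had 0.549 and 0.341. C9orf152, PRSS30P, SAMD5, C20orf96 and C5orf13 had 48 h ratios between 0.271 and 0.446.

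Several members overlap a more abundant or likewise lowered gene, so their counts may hold reads of it. KDELC1P1, a pseudogene at 3.25 CPM, overlaps SLC12A2 at 688 CPM, which had ratios of 0.468 and 0.306 beside 0.478 and 0.305 for the pseudogene. RP11-475O23.3, an antisense RNA, overlaps FAM3D, which had ratios of 0.548 and 0.347. TRIM5, an antiviral factor, shares its region with TRIM34, at 0.442 and 0.313. C10orf108 is antisense to DIP2C, whose 24 h ratio was 0.769 against 0.465 for the antisense RNA. The levels of these 4 members are uncertain for that reason.

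Some of the 65 genes also changed with the LXR agonists at 24 h, a time the rule did not use for them. With GW3965, 8 of the 65 fell, 12.3%, beside 0.868% of all genes tested, and 1 rose, beside 1.86%. With T0901317, 2 fell, beside 0.119%, and 1 rose, beside 1.33%. The median log2 fold change of the members was -0.22 with GW3965 and -0.19 with T0901317, against -0.01 and -0.0039 over all genes. The value was under 0 in 50 members with GW3965 and in 45 with T0901317, beside 51.7% and 51.1% of all genes. Every GW3965 library lay under every DMSO library in 21 members, beside 6.48%, and above it in 3, beside 3.42%. Every T0901317 library lay under every DMSO library in 12, beside 5.15%, and above it in 3, beside 3.87%. Both comparisons share the 4 DMSO libraries of 24 h with the rule, which chose genes for a high level in them relative to rosiglitazone, and with each other.

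CAPS2, a calcium-binding protein gene, had the largest decrease with GW3965. It held 2.92, 3.28, 3.504 and 3.29 CPM with DMSO and 1.57, 1.63, 1.70 and 1.34 CPM with GW3965, a log2 fold change of -1.01 ± 0.15 (SE, adjusted p = 0.000166). The groups did not overlap, and GW3965 came near the rosiglitazone mean of 1.28 ± 0.0909 CPM (SD, n = 4). SLITRK6 held 17.7, 13.05, 15.4 and 15.7 CPM with GW3965 and 18.7, 21.4, 18.3 and 23.9 CPM with T0901317. All 8 values lay under the lowest DMSO value, and the GW3965 values reached into the range of rosiglitazone, with a log2 fold change of -0.90 ± 0.09 (SE, adjusted p = 1.91e-06) for GW3965 and a log2 fold change of -0.50 ± 0.09 (SE, adjusted p = 0.00314) for T0901317. The T0901317 call of SLITRK6 was lost without T0901317 replicate 1 or 3 or DMSO replicate 3, with adjusted p-values of 0.0198, 0.0167 and 0.0171 by edgeR.

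TGFBI held 77.6, 73.7, 68.7 and 65.1 CPM with GW3965 and 73.3, 80.6, 73.4 and 72.5 CPM with T0901317. It fell with both, with a log2 fold change of -0.51 ± 0.06 (SE, adjusted p = 1.15e-05) and a log2 fold change of -0.44 ± 0.06 (SE, adjusted p = 0.000144), and the agonists gave like levels. CREB3L1 held 170.3, 207, 247 and 229 CPM with GW3965 and fell, with a log2 fold change of -0.64 ± 0.12 (SE, adjusted p = 0.00155). With T0901317 it held 280.4, 272, 334 and 244 CPM, which overlapped DMSO at the upper end, and had a log2 fold change of -0.24 ± 0.12 (SE, adjusted p = 0.411). ATP6V1B1 fell with GW3965, with a log2 fold change of -0.60 ± 0.08 (SE, adjusted p = 0.000114), and so did KCNJ3, with a log2 fold change of -0.74 ± 0.14 (SE, adjusted p = 0.00164). C11orf92 fell with a log2 fold change of -0.49 ± 0.09 (SE, adjusted p = 0.00128), and C11orf93 with a log2 fold change of -0.45 ± 0.10 (SE, adjusted p = 0.00615). The C11orf93 call did not survive the omission of most single libraries, with adjusted p up to 0.0331, and it rests on a pair that may share reads.

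UTRN alone rose among the members that edgeR called with an LXR agonist against DMSO. Its GW3965 libraries held 45.3, 47.8, 48.6 and 47.8 CPM and its T0901317 libraries 50.04, 50.99, 46.3 and 46.9 CPM at 24 h, all above every DMSO library. It rose with a log2 fold change of 0.56 ± 0.07 (SE, adjusted p = 2.43e-05) and a log2 fold change of 0.58 ± 0.07 (SE, adjusted p = 2.53e-05), while it was lower with rosiglitazone. At 48 h it stood at 1.33 and 1.44 of DMSO with the LXR agonists, inside the window. DESeq2 also called SEMA3A higher with both agonists at 24 h, and PIK3AP1 higher with T0901317. Outside the window at 24 h by CPM ratio were 9 members, namely CREB3L1, SLITRK6, ATP6V1B1, NEB, KCNJ3, OR51E1, VASH2, CAPS2 and ACY3. By 48 h the median ratio of the 65 genes was 0.949 with GW3965 and 1.12 with T0901317, as the window requires of each. The description as lowered by rosiglitazone alone thus holds only in the sense of the 48 h window, inside which levels could differ from DMSO. With GW3965 at 48 h, ratios ran from 0.671 in PLK2 to 1.49 in NEUROG3, the members nearest the edges for that drug. The rule used this contrast, so these ratios are a description only. At 24 h, 8 of the 65 genes were also called lower with an LXR agonist.

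**Figure D5:**
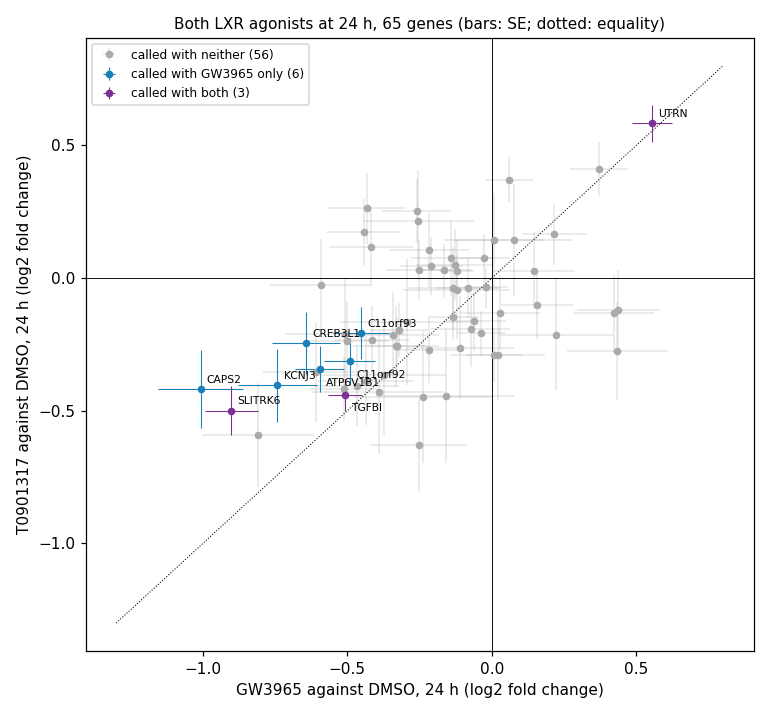
Each point is 1 of the 65 genes at 24 h, with the log2 fold change of GW3965 against DMSO on the x axis and of T0901317 against DMSO on the y axis; bars are SE, both axes share the DMSO libraries, and color marks calls at an adjusted p under 0.01. Called genes lie at the lower left, CAPS2 furthest along the x axis at -1.01, and UTRN alone among them lies at the upper right.

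The 109 genes that met the rosiglitazone limits but lay outside the LXR window gave the comparison. Of these, 23 fell and 3 rose with GW3965 at 24 h, and 4 fell and 8 rose with T0901317. Their median log2 fold change was -0.24 with GW3965, beside -0.22 for the members, and -0.10 with T0901317, beside -0.19 for the members. The difference between these sets was not tested. At 48 h they were chosen for their LXR response, with 37 above 1.5 of DMSO with both agonists and 13 under 0.67 with both.

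The 2 LXR agonists could be compared with each other at 24 h in 8 libraries that the rule had not used. ERN2 alone was higher with T0901317 than with GW3965, beside 0.597% of all genes, and 0 were lower, beside 0.193%. ERN2 held 10.9, 17.3, 16.01 and 17.5 CPM with GW3965 and 23.6, 24.6, 28.1 and 24.3 CPM with T0901317, without overlap, a log2 fold change of 0.69 ± 0.14 (SE, adjusted p = 0.00823). GW3965 replicate 1 was the lowest by far, and the call was lost when any single library other than GW3965 replicates 1 and 4 was left out, with adjusted p up to 0.0388, and in a fit of these 8 libraries alone, with an adjusted p of 0.0636 by edgeR. Every T0901317 library lay above every GW3965 library in 8 members, beside 3.98%, and under it in 5, beside 1.99%. At an unadjusted p under 0.05, edgeR had 17 members higher and 6 lower with T0901317, beside 6.74% and 4.83% of all genes, and DESeq2 called 4 higher, SLITRK6, ETV1, TNS1 and ERN2, and 1 lower, ENTPD8. Without GW3965 replicate 1, NEUROG3 and KIF19 were called lower with T0901317.

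By mean level, T0901317 was above GW3965 in 44 members at 24 h, in 46 at 48 h and in 39 at both times. T0901317 was under GW3965 at both times in 14, among them RAP1GAP, NEUROG3, ENTPD8, KIF19, GPC2 and TNFRSF11B. The 48 h levels entered the rule and the shares over all genes were not counted, so nothing is read from these counts. Over all genes of at least 2 CPM, the median ratio to DMSO at 48 h was 1.03 with T0901317 and 0.967 with GW3965. NEUROG3 showed this order in the single libraries too, with 5.08, 6.09, 7.20 and 7.13 CPM with GW3965 and 3.75, 4.42, 4.73 and 4.64 CPM with T0901317 at 24 h. All GW3965 values were above all T0901317 values, with a log2 fold change of -0.55 ± 0.14 (SE, adjusted p = 0.0553), which did not pass the threshold.

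The DMSO groups of both times entered the rule, so their levels over time are a description only. The median of DMSO at 48 h over DMSO at 24 h was 1.23, against 0.999 over all 14342 genes of at least 2 CPM. The ratio was at least 1.5 in 19 members and at least 2 in 5, ANXA13, FAM83E, PRSS30P, ST6GALNAC1 and TBX10, and it was at most 0.67 in VASH2 and CAPS2. The 2 times are separate tables, so these ratios carry no test. With rosiglitazone, 39 of the 65 genes were lower at 48 h than at 24 h. The shares over all genes were not counted for these limits, so nothing is read from the counts of members.

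The Wnt, MAPK, BMP and cytokine lists, each with a single member, had other genes called in both directions. In the Wnt target and stem cell list, which holds PROX1, 7 of 20 other genes fell and 3 rose at 24 h, and 8 fell and 5 rose of 20 at 48 h. NOTUM, which inactivates Wnt proteins, fell with a log2 fold change of -2.99 ± 0.21 (SE, adjusted p = 1.52e-09) at 48 h, and NKD2, a feedback inhibitor, rose with 1.41 ± 0.13 (SE, adjusted p = 5.44e-08). In the MAPK feedback list, which holds ETV1, 8 fell and 7 rose of 25 at 24 h and 5 fell and 9 rose of 26 at 48 h. DUSP4, which dephosphorylates ERK, fell with -0.91 ± 0.08 (SE, adjusted p = 6.47e-08), while FOS rose with 1.11 ± 0.08 (SE, adjusted p = 7.28e-09) at 24 h. In the BMP and TGF-beta list, which holds ID2, 4 fell and 6 rose of 27 at 24 h and 5 fell and 8 rose at 48 h. ID1, a close relative of ID2, rose with 0.98 ± 0.06 (SE, adjusted p = 1.51e-09) at 24 h. In the cytokine list, which holds TNFRSF11B, 4 fell and 2 rose of 21 at 24 h and 9 fell and 3 rose of 24 at 48 h.

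The Notch pathway, with no member on its list, had 5 lower and 2 higher of 22 at 24 h and 6 lower and 6 higher of 25 at 48 h. Its ligands diverged. DLL4 fell with a log2 fold change of -1.70 ± 0.12 (SE, adjusted p = 5.78e-09) at 24 h and DLL1 with -2.91 ± 0.14 (SE, adjusted p = 1.18e-11) at 48 h, while JAG1 rose with 0.88 ± 0.09 (SE, adjusted p = 3.71e-07) and 1.40 ± 0.17 (SE, adjusted p = 3.36e-06) at the 2 times. The epidermal growth factor list had 5 lower and 2 higher of 13 at 24 h and 5 lower and 1 higher of 14 at 48 h. The adhesion and matrix list had 7 lower and 9 higher of 33 at 24 h and 9 lower and 12 higher of 34 at 48 h. LXR targets had 1 lower and 5 higher of 10 at 24 h and 1 lower and 7 higher of 10 at 48 h with rosiglitazone. Of the 15 colon epithelial markers, 3 fell and 4 rose at 24 h and 5 fell and 5 rose at 48 h. Of the 3 tested genes each of the fibroblast, leukocyte and endothelial lists, LUM rose at 24 h and CD68 at 48 h and no other was called. DESeq2 gave the same counts for these 3 marker lists. At an unadjusted p under 0.05, edgeR had 1 fibroblast and 1 leukocyte gene lower at 24 h, 2 fibroblast genes higher and 1 endothelial gene lower at 48 h, and 0 endothelial genes at 24 h.

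The limits cut through a continuous range. Closest inside the 24 h rosiglitazone limit stood RP11-475O23.3 at 0.499, NEUROG3 at 0.497 and PGM2L1 at 0.496, and closest outside stood BTG2 at 0.501, CLU at 0.501 and ZNF169 at 0.501. For 48 h these were FBLIM1 at 0.479, TRIM5 at 0.462 and GPR37 at 0.457 inside, and TMEM150B at 0.504, ALDH6A1 at 0.515 and AMIGO1 at 0.516 outside. By the DMSO level in CPM, the closest inside were TBX10 at 2.07, CRISPLD2 at 2.08 and RP11-475O23.3 at 2.12, and the closest outside CTC-426B10.1 at 1.97, GADD45G at 1.95 and RHOV at 1.95. At the upper edge for GW3965 these were NEUROG3 at 1.49, OR51E1 at 1.46 and ARSE at 1.38 inside, and HES6 at 1.52, AQP2 at 1.59 and CACNA2D2 at 1.65 outside, and at its lower edge PLK2 at 0.671, ANXA13 at 0.692 and TGFBI at 0.693 inside, and ITGA1 at 0.66, AKAP7 at 0.649 and DYNC2H1 at 0.623 outside. For T0901317 the upper edge ran between ETV1 at 1.49, C5orf13 at 1.47 and UTRN at 1.44 inside, and DPYSL2 at 1.56, HOXC6 at 1.56 and ADAMTS6 at 1.56 outside. Its lower edge ran between TNFRSF11B at 0.68, KLK12 at 0.695 and TGFBI at 0.695 inside, and RCOR2 at 0.648, MARCH3 at 0.647 and EPHB3 at 0.642 outside.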

How the data were processed

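Poly(A) RNA of HT29 cells was sequenced paired end from transposase-cut libraries. The authors deposited whole-number read counts per Ensembl gene, without normalization, in 1 table per time of 16 libraries each. The submitters' processing notes name Bowtie, Cufflinks, MACS and TopHat without versions or roles. Which counter was used, and with which strand setting, is not given in the sources used here. Protein-binding peaks of the same series were not analysed here, since they use another genome build than the reference at hand.

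CPM were counts over the column total, times 1000000. Drugs were compared with DMSO and with each other in edgeR 4.0.16 (R 4.3.3), with filterByExpr, TMM factors and the quasi-likelihood test over all 16 libraries of a time. This left 21781 genes at 24 h and 22470 at 48 h. P-values were adjusted by Benjamini-Hochberg over all genes tested and called under 0.01, without a fold minimum. DESeq2 1.42.0 was an alternative. The scripts were first tested on simulated counts. No pair of replicates agreed within sampling noise. At 24 h, GW3965 replicate 1 differed most from its own group. Its chi-square per gene was 31.8, 73.2 and 66.4 against replicates 2, 3 and 4, which had 5.30 to 11.5 among themselves. All comparisons with GW3965 at 24 h include this library unless it is said to be left out. Libraries with the same replicate number did not deviate together (correlations of -0.457 to 0.53 at 24 h and -0.201 to 0.354 at 48 h), so the numbers were not used to pair libraries.

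The members and gene lists were chosen with earlier results of these data known. Named members were the 12 most abundant, the 12 with the lowest ratios, those called with an LXR agonist, those on a list, those of known role and those next to a limit of the rule. List genes named were examples of low p in each direction. Neighboring and overlapping genes, FDX1, SIK2, DDX10, NUDT8, FOXA2, PLK1 and the partners of overlapping members among them, were named after their values were seen. Promoter windows are RefSeq (GRCh38.p14). Alternatives covered scaling, count filter, tool, block, fold minimum, limits of the rule and each library left out.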

Additional observations from a re-analysis of the deposited data

Results flagged for a closer look

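In 24 of the 520 sets of 4 libraries of a member, 4.62%, the highest or lowest library stood apart by more of the range than Dixon's criterion allows. The criterion is passed by chance in about 1 set in 20. At 24 h these were CREB3L1 in rosiglitazone replicate 3 at 84.2 CPM above 73.1 to 73.8 CPM, TGFBI in T0901317 replicate 2 at 80.6 CPM above 72.5 to 73.4 CPM and SLITRK6 in DMSO replicate 3 at 36.2 CPM above 27.1 to 28.5 CPM. At 24 h there were also TRIM5 in DMSO replicate 2 at 14.4 CPM under 17.0 to 17.2 CPM, SEMA4A in GW3965 replicate 1 at 10.9 CPM under 12.6 to 12.8 CPM and PROX1 in DMSO replicate 3 at 8.61 CPM above 6.07 to 6.34 CPM. The next at 24 h were STYK1 in T0901317 replicate 3 at 5.90 CPM under 6.93 to 7.08 CPM, STYK1 in GW3965 replicate 1 at 6.27 CPM above 5.35 to 5.46 CPM and NEUROG3 in rosiglitazone replicate 1 at 1.99 CPM under 2.58 to 2.69 CPM. Further 24 h values were OR51E1 in rosiglitazone replicate 1 at 1.03 CPM under 1.62 to 1.74 CPM, DPYD in DMSO replicate 3 at 3.504 CPM above 2.95 to 3.04 CPM and MEIS1 in GW3965 replicate 1 at 3.12 CPM above 1.70 to 1.91 CPM. The last at 24 h was ACY3 in rosiglitazone replicate 2 at 1.04 CPM above 0.788 to 0.809 CPM. At 48 h these were CREB3L1 in DMSO replicate 3 at 359.7 CPM under 407 to 416 CPM, RAP1GAP in DMSO replicate 3 at 205 CPM under the others, all at 212 CPM and TGFBI in T0901317 replicate 1 at 90.3 CPM above 85.1 to 85.9 CPM. At 48 h there were also SLITRK6 in GW3965 replicate 4 at 42.3 CPM above 38.5 to 39.0 CPM, FAM83E in T0901317 replicate 2 at 31.5 CPM under 35.1 to 35.6 CPM and FBLIM1 in GW3965 replicate 3 at 21.5 CPM above 17.1 to 17.8 CPM. The next at 48 h were ST6GAL1 in rosiglitazone replicate 4 at 2.09 CPM above 1.34 to 1.35 CPM, VASH2 in GW3965 replicate 3 at 1.49 CPM under 2.13 to 2.16 CPM and CAPS2 in GW3965 replicate 1 at 2.85 CPM above 1.81 to 1.90 CPM. Further 48 h values were DPYD in DMSO replicate 3 at 1.87 CPM under 2.79 to 2.95 CPM and ACY3 in T0901317 replicate 1 at 4.17 CPM under 5.23 to 5.43 CPM. The libraries named most often, with 3 sets each, were replicate 3 of DMSO at 24 and at 48 h and GW3965 replicate 1 at 24 h. Values with rosiglitazone that stood apart, in CREB3L1, NEUROG3, OR51E1, ACY3 and ST6GAL1, all lay under every DMSO value of the same time.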

How the results depend on the processing

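The membership of the rule moved with its limits. A rosiglitazone limit of 0.4 gave 22 genes, a DMSO minimum of 5 CPM gave 40 and of 1 CPM 100, and a narrower LXR window, starting at 0.8, gave 30. With each of the 32 libraries left out in turn, 59 to 73 genes met the limits, 57 to 65 of them among the 65, and 39 members met them every time. The fewest were left without DMSO replicate 3 of 24 h.

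With DESeq2, GW3965 against DMSO at 24 h had 313 genes lower among all genes against 189. It had 10 members lower against 8, with TSPAN12 and VASH2 added, and 2 members higher. T0901317 against DMSO had 64 lower and 440 higher against 26 and 289. It had 3 members lower against 2, with ATP6V1B1 added, and 3 members higher. T0901317 against GW3965 had 107 lower and 265 higher against 42 and 130, with 1 member lower and 4 higher. With only the 2 groups compared in the fit, GW3965 had 123 genes lower, T0901317 had 2 members higher, and T0901317 against GW3965 had 16 lower and 39 higher and 0 members higher.

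With a fold change of at least 1.5, GW3965 had 75 lower and 216 higher (members 5 and 0), T0901317 had 7 and 150 (members 0 and 0), and T0901317 against GW3965 had 15 and 63. With a fold change of at least 2 these were 20 and 97 (members 1 and 0), 2 and 59 (members 0 and 0), and 5 and 16 (members higher 0), and rosiglitazone against DMSO had 305 lower and 170 higher at 24 h and 870 and 447 at 48 h. The cause is the fold minimum itself.

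Scaling by library size alone shifted rosiglitazone against DMSO to 2209 lower and 743 higher at 24 h, from 1421 and 1266, and to 5459 and 1374 at 48 h, from 2949 and 2771. In T0901317 against GW3965 it gave 2 members higher, as did no filter on low counts, and DESeq2 size factors in edgeR gave 0.

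With the replicate number as a block, ERN2 was no longer called (adjusted p = 0.0136, edgeR), so T0901317 against GW3965 had 0 members higher. Under the block the other counts over all genes and members stayed within 1.5 times, with 8 members lower with GW3965, though the numbers do not pair the libraries (5 of 16 libraries at 24 h and 4 of 16 at 48 h correlated best with their own number).

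Leaving out 1 library gave 13 to 27 genes lower with T0901317 (fewest without T0901317 replicate 1) and 1 to 2 members lower and 1 to 2 higher (2 higher without DMSO replicate 3). T0901317 against GW3965 then had 75 to 130 genes higher (fewest without GW3965 replicate 2) and 31 to 91 lower (most without GW3965 replicate 1), with 0 to 1 members higher and 0 to 2 lower. GW3965 against DMSO kept 7 to 8 members lower and 1 higher. No result changed direction under any alternative run. Apart from C11orf93, SLITRK6 and ERN2, described above, no called member lost its call in the tests at 24 h of the LXR agonists, the fold minimum aside. The causes of changes other than with the fold minimum were not tested. Peaks at member promoters and their 3 alternatives were not run. Depth limits the ratios of POU2AF1, VASH2, ST6GALNAC1 and DACH1, with fewer than 10 counts in some rosiglitazone libraries.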

Other observations

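The 8 genes that met the same limits but were left out by symbol were MUC16, CFTR, SLC28A3, SLC38A11, CD200, ATOH1, SLC12A2 and SLC44A5. ATOH1, the factor that commits intestinal cells to the secretory fate, had 5.55 ± 0.83 CPM (SD, n = 4) with DMSO and 1.49 ± 0.15 CPM (SD, n = 4) with rosiglitazone at 24 h, and its 48 h ratio of 0.0426 was under that of every member. CD200, a surface protein that dampens myeloid cells, had ratios of 0.165 and 0.0639. CFTR, the chloride channel of crypt and secretory cells, was more abundant, with 105 ± 8.92 CPM (SD, n = 4) with DMSO and 19.3 ± 4.94 CPM (SD, n = 4) with rosiglitazone at 48 h. MUC16 varied widely in DMSO at 24 h, with 2.54 ± 2.74 CPM (SD, n = 4), so that its ratio of 0.0954 there is imprecise.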
